A study of Mus musculus with 6 samples.

Results

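The Wnt ligands, their receptors and the proteins that modulate them were described in ovarian granulosa cells of Il22r+/+ and Il22r-/- mice. The members were all protein-coding genes of the count table whose symbol names a Wnt, Frizzled, Sfrp, Dkk, R-spondin, Lgr4 to Lgr6, Lrp5 or Lrp6, Axin, TCF/LEF factor, Rnf43, Znrf3, Porcn, Wls or Wif1, which gave 57 of 55860 genes. They comprised 19 Wnt ligands, 2 genes of ligand secretion, 10 Frizzled receptors, 2 co-receptors, 9 genes of the R-spondin branch, 9 secreted antagonists, 2 Axin scaffolds and 4 TCF/LEF factors. Membership rested on symbols alone and used no measured value. Each genotype had 3 libraries made from total RNA of granulosa cells isolated on a density gradient and kept for 12 h in serum-supplemented culture. All 6 libraries share that culture step. The sources used here do not state the age or strain of the mice, which part of the receptor gene was deleted, or how many animals stand behind a library, so the p-values measure the spread between these libraries, which may be technical.

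Wnt proteins are secreted, lipid-modified ligands that bind Frizzled receptors together with the co-receptors LRP5 or LRP6. In the canonical arm this keeps beta-catenin from being destroyed by the Axin and APC complex, and beta-catenin then activates target genes with TCF/LEF factors. Other Wnt proteins act without beta-catenin, through receptors such as ROR2 and through cell polarity proteins. In the mouse ovary, Wnt4 and the R-spondin Rspo1 are known for their part in female gonad development, and Sfrp4, Fzd1 and Fzd4 for their expression in granulosa cells or corpora lutea around ovulation.

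Counted reads ran from 17.43 M to 17.7 M reads in Il22r+/+ and from 14.95 M to 18.12 M in Il22r-/-. Il22ra1, taken as the targeted receptor gene, had few reads, 10 over the Il22r+/+ libraries together and 7 over the Il22r-/- libraries together, too few to check the genotype labels. Il22r-/- replicate 3 stood apart on the second principal component (score 14.5, against -8.93 to 1.22 in the others). The granulosa label was checked against a marker list, whose summed level ranged from 6114.4 to 6734.6 CPM (read counts scaled to the normalised size of the library) in Il22r+/+ and from 6399.4 to 7082.9 CPM in Il22r-/-. These sums overlapped, but they rest mostly on the inhibin and activin subunit genes Inha and Inhba. Of the 10 tested granulosa markers 6 were called, against 45.7% of all 15227 tested genes. Fshr, Amhr2, Nr5a2 and Inhba were higher in Il22r-/- and Gata4 and Foxl2 lower, while Cyp19a1 and Amh had too few reads for a test. Markers of other cells were called as well, and their counts stand beside 23.6% of all tested genes called higher and 22.1% called lower. Of 11 tested markers of the ovarian surface and mesothelium 8 fell and none rose, with a sum of 953.6 to 970.7 CPM in Il22r+/+ and 172 to 188.4 CPM in Il22r-/-. All 9 tested macrophage markers rose, from 8.83 to 11.6 CPM in sum to 28.4 to 87.2 CPM. Smooth muscle markers summed to 281.7 to 334.9 CPM and 362.8 to 590.2 CPM (4 of 7 tested rose, 1 fell), and stroma and theca markers to 726.3 to 744.7 CPM and 289.9 to 451.8 CPM (3 of 8 rose, 2 fell). Endothelial markers summed to 6.62 to 8.71 CPM and 7.16 to 11.2 CPM (2 of 4 tested, Pecam1 and Kdr, rose, and Tek fell). Oocyte markers summed to at most 3.05 CPM in any library, and neither of the 2 tested was called. The endothelial genes Emcn and Cldn5 and the oocyte genes Zp2 and Dppa3 had no reads in Il22r+/+. Among the markers that rose, Fshr, Thy1, Actg2, Des, Pecam1, Kdr, C1qa, C1qb, C1qc, Tyrobp, Adgre1 and Fcer1g averaged at most 0.532 CPM in Il22r+/+. That is too little for a test on the Il22r+/+ libraries alone. These markers were tested because of their reads in Il22r-/-, where they are high, so their rises are given as a description. Myh11, at 0.706 ± 0.516 CPM in Il22r+/+, was likewise tested through Il22r-/-. Bnc1, at 0.677 ± 0.417 CPM in Il22r-/-, was tested through Il22r+/+, where it is high. The rise of Myh11 and the fall of Bnc1, counted above, are descriptions too. The part of these other cell types in the Wnt results was not tested. Fewer cells of a type and less RNA per cell cannot be told apart in these bulk libraries.

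Between the genotypes the family shifted in composition. The ligand Wnt10b and the antagonist Sfrp2 rose. The receptor Fzd1, the ligand Wnt9a, the ligand carrier Wls, the antagonist Sfrp4 and Dkk3 (grouped with the antagonists by symbol) fell. The canonical readout Axin2 did not pass the test. Of the 57 members, 37 had enough reads to be tested, and in the edgeR quasi-likelihood fit over all genes 12 of them were higher and 8 lower in Il22r-/- at a Benjamini-Hochberg adjusted p under 0.05. Those 20 are 54.1% of the tested members. Among all 15227 tested genes 45.7% were called, 23.6% higher and 22.1% lower, so the members' share was not far from the background. In 22 of the 37 members the libraries of the 2 genotypes did not overlap, against 56.0% of all tested genes. Of the 37 tested members 8 were called and changed at least 2-fold, 4 in each direction, which 14.3% of all tested genes did. Another 5 of the 37 were called and changed under 1.5-fold (19.9% among all tested genes). The median log2 fold change (Il22r-/- minus Il22r+/+) was 0.06 over the tested members and 0.03 over all tested genes. Of the 37 members 5 were brought into the test by the reads of 1 genotype only: Wnt2, Wnt11, Wnt16 and Fzd9 by Il22r-/- and Rspo1 by Il22r+/+. Of these, Wnt2 and Wnt16 are among the 4 members that were at least 2-fold higher. They were tested only because of the genotype in which they are high, so their calls support nothing about the family.

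**Figure D1:**
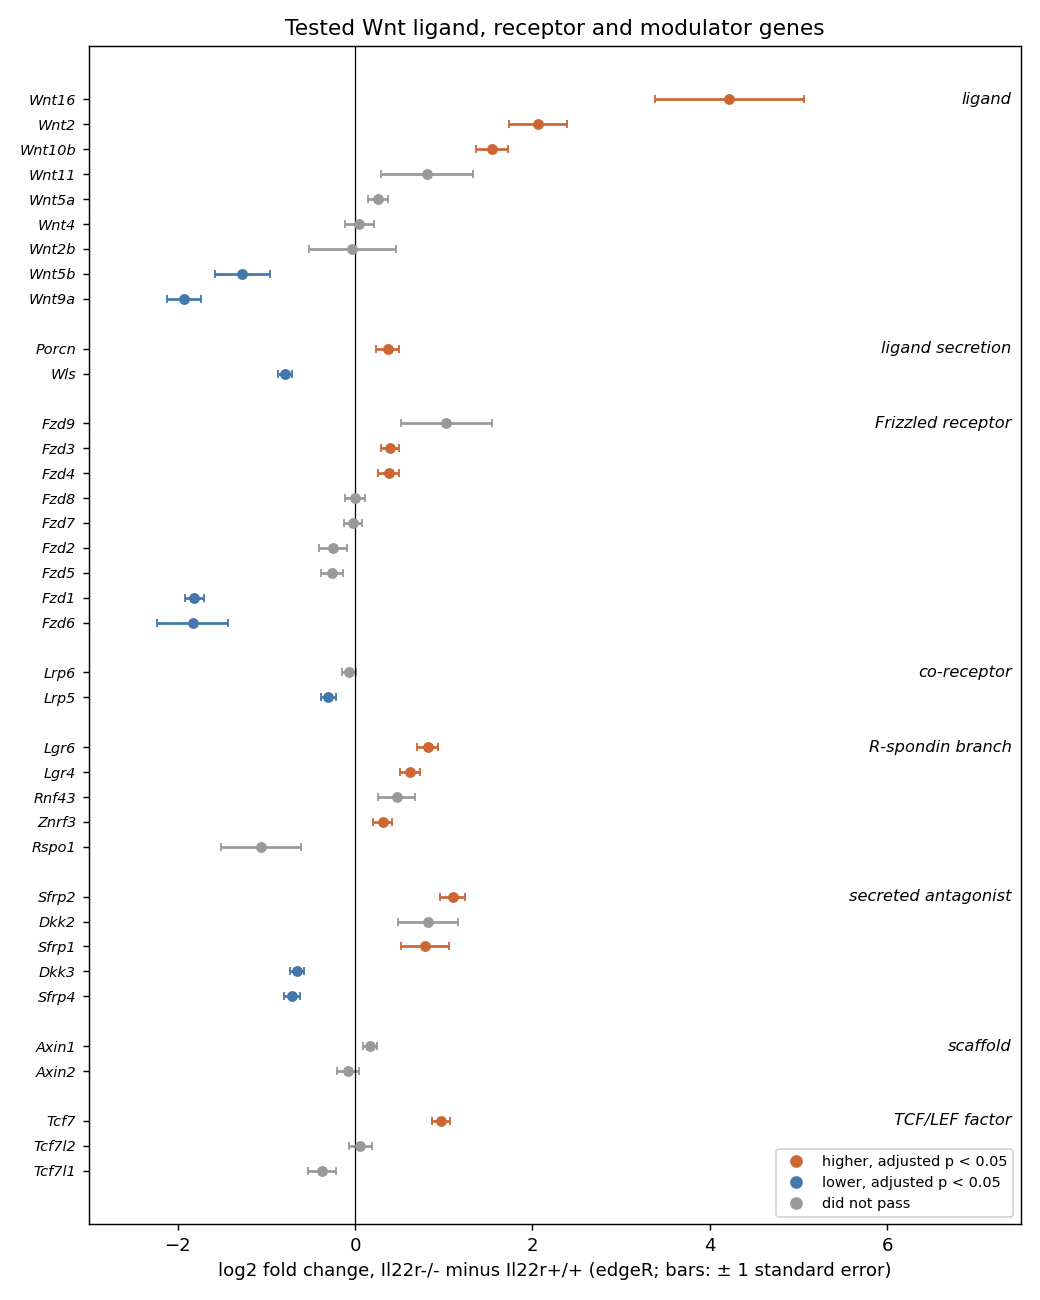
Log2 fold change of each of the 37 tested members (points, edgeR, Il22r-/- minus Il22r+/+, bars ± 1 standard error), grouped by role, with called members in colour. The ligands run from Wnt16 at 4.22 to Wnt9a at -1.93, and every role with more than 2 tested members holds at least 1 called gene.

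Among the ligands, Wnt10b had the largest rise of those above 5 CPM. Wnt10b (ENSMUSG00000022996, mm10 chromosome 15, 98770712 to 98778150, minus strand), a ligand of the canonical arm, had 44.3, 40.8 and 41.5 CPM in Il22r+/+ and, in Il22r-/-, 160.1, 110.7 and 97.1 CPM, each given in the order of the replicate numbers. Every Il22r-/- library lay above every Il22r+/+ library, and the Il22r-/- libraries were spread more widely. The rise was 2.91-fold (log2 fold change 1.54 ± 0.18, standard error of the fit, n = 3 against 3, edgeR adjusted p = 0.000234). Wnt2, which can also act through beta-catenin, had 1.05, 0.776 and 0.533 CPM in Il22r+/+ and 3.99, 2.67 and 3.28 CPM in Il22r-/-. Its groups did not overlap, and its fitted level was 4.18-fold higher in Il22r-/- (2.06 ± 0.33, edgeR adjusted p = 0.000518). Since Wnt2 passed the filter on low counts through the Il22r-/- libraries alone, this is given as a description, and the same holds for Wnt16. Wnt16 reads numbered 2 in Il22r+/+, both from replicate 1, against 12, 24 and 10 for the Il22r-/- libraries. The pooled ratio was 23.7 with an exact 95% interval of 6.19 to 201, which covers counting error only. The fitted log2 change of Wnt16 was 4.22, and 6.91 without Il22r+/+ replicate 1, a size set by the fit because no Il22r+/+ read was left.

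Of the ligands that fell, Wnt9a (ENSMUSG00000000126, chromosome 11, 59306928 to 59333552, plus strand), a ligand best known from joint formation, was the most abundant, with 11.8, 11.7 and 11.6 CPM in Il22r+/+ and 3.57, 3.31 and 2.23 CPM in Il22r-/-. The Il22r+/+ libraries were nearly level, and all lay above the Il22r-/- libraries. The fall was 3.82-fold (log2 fold change -1.93 ± 0.19, edgeR adjusted p = 2.27e-05). Wnt5b, a close relative of Wnt5a that acts mainly without beta-catenin, had 3.57, 4.89 and 6.1 CPM against 2.36, 2.4 and 1.18 CPM. Its groups did not overlap and it fell 2.42-fold (-1.27 ± 0.31, edgeR adjusted p = 0.00669).

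The remaining tested ligands did not pass. Wnt5a, the most abundant ligand per length in Il22r+/+ and the main activator of the beta-catenin-independent arm, had 195.6, 215.3 and 189.8 CPM in Il22r+/+ and 283, 212.2 and 221.9 CPM in Il22r-/-. The groups overlapped, with Il22r-/- replicate 1 the highest library, and the log2 fold change was 0.26 ± 0.11 (edgeR adjusted p = 0.0841, range over the alternatives 0.0165 to 0.357). It was called when Il22r-/- replicate 2 was left out (edgeR adjusted p = 0.0465). Wnt4 had 41.7, 38.1 and 40.5 CPM against 54.1, 37 and 33.2 CPM, so that Il22r-/- libraries lay on either side of the Il22r+/+ range (0.05 ± 0.16, edgeR adjusted p = 0.822). Wnt11 had 0.175, 1.25 and 1.36 CPM against 1.52, 1.87 and 1.51 CPM (0.81 ± 0.52, edgeR adjusted p = 0.232), and Wnt2b lay between 0.694 and 2.36 CPM in all 6 libraries, with a log2 change of -0.03 that was -0.80 without Il22r-/- replicate 1.

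Compared per length, in the deposited FPKM (read counts scaled to gene length and library size), the order of the ligands differed between the genotypes. In Il22r+/+ the order was Wnt5a (25 to 28.2 FPKM over the libraries), Wnt10b (12.3 to 13.4), Wnt4 (9.31 to 10.2), Wnt9a (3.59 to 3.65) and Wnt5b (1.38 to 2.37), and the ranges of these neighbours did not overlap. In Il22r-/- Wnt10b (29.1 to 47.1 FPKM) and Wnt5a (27.4 to 36.2 FPKM) overlapped and led, followed by Wnt4 (8.07 to 12.9) and Wnt2 (1.19 to 1.77), and then by Wnt9a (0.683 to 1.07) and Wnt5b (0.454 to 0.913), which overlapped each other. Wnt5a made up 47.3% ± 2.23 (SD, n = 3) of the summed ligand FPKM in Il22r+/+ and 38.1% ± 2.94 in Il22r-/-. The share of Wnt10b was 23.0% ± 1.23 and 44.3% ± 2.43, with ranges of 21.7 to 24.2% and 41.6 to 46.4%. Wnt4 made up 16.4 to 18.4% and 11.6 to 12.7%, and Wnt9a 6.36 to 6.59% and 0.978 to 1.37%. The summed ligand FPKM itself was 54.7 to 56.6 in Il22r+/+ and 69.9 to 101.5 in Il22r-/-. These shares and sums are descriptions of the libraries, with no test. The shares do not depend on the library scaling of the FPKM, but the sums do, and it differed between the genotypes.

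**Figure D2:**
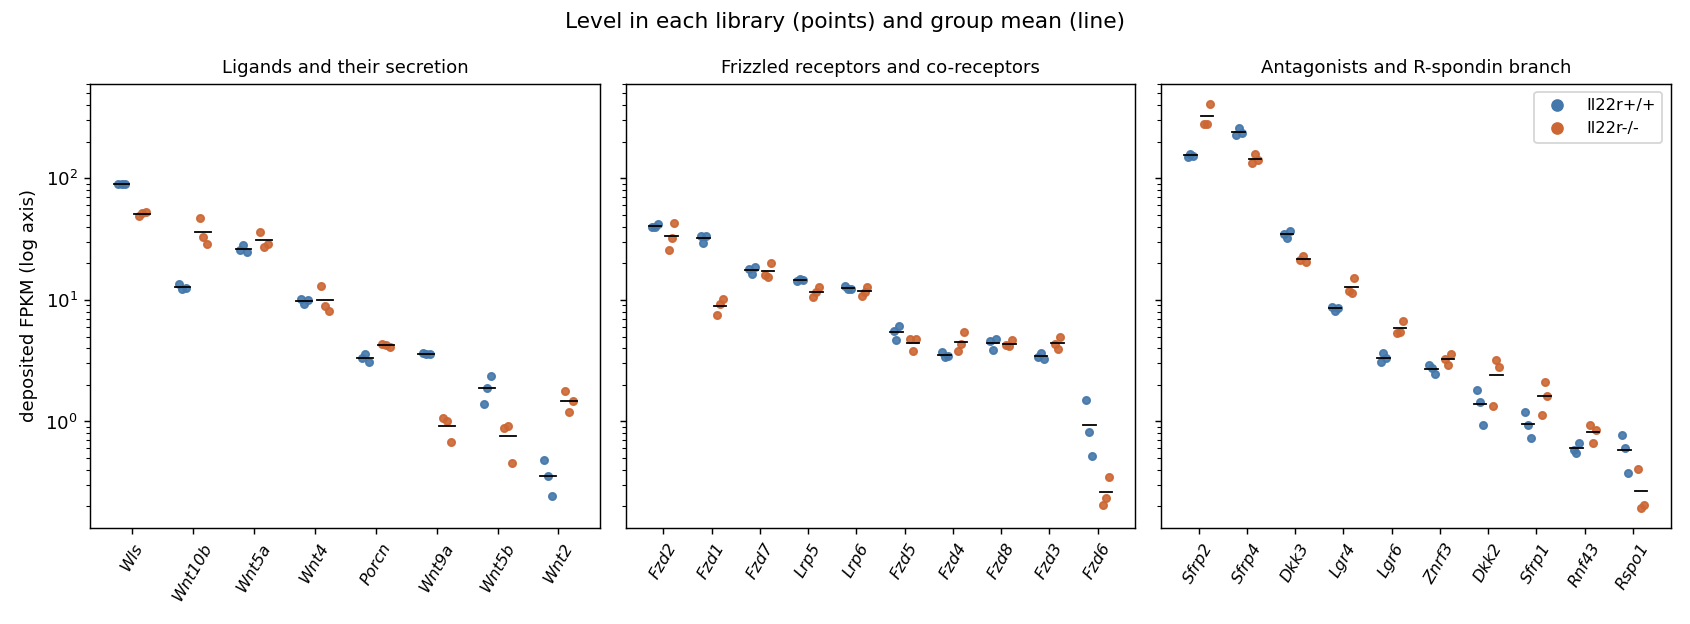
Deposited FPKM (log axis) of tested members with a group mean of at least 0.5 FPKM, 1 point per library and a line at each group mean. The scaffolds and TCF/LEF factors are not shown. Wnt10b rises beside Wnt5a, Fzd1 drops below Fzd7, and Sfrp2 and Sfrp4 exchange places between the genotypes.

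Promoter sequence was available for 37 of the 57 members, as 46 windows of the 250 bases before an annotated start (RefSeq, build GRCm38.p6). The windows were searched for the TCF/LEF core CTTTGAT (on the other strand ATCAAAG), at which beta-catenin acts, and for the STAT palindrome TTCNNNGAA, at which STAT3 can bind. The TCF/LEF core was found in 3.21% of all 32851 windows and in 2 of the 46 member windows, 1 each of Wnt5b and Wnt11. The STAT palindrome was found in 7.02% of all windows and in 1 of the 46, a window of Wnt5b. Member windows held more CpG (median 18.5, against 6 in all windows), so the 2 sets differ in base composition. Of the 20 called members 12 had a window, and among those 12 Wnt5b alone held either motif, in windows of separate starts. Those are shown with the matches in capitals, beside the window of Wnt10b, the most abundant ligand that rose, in which neither was found. A match is a stretch of letters and no evidence of binding.
Wnt5b start with the TCF/LEF core, chr6:119449387-119449636, minus strand: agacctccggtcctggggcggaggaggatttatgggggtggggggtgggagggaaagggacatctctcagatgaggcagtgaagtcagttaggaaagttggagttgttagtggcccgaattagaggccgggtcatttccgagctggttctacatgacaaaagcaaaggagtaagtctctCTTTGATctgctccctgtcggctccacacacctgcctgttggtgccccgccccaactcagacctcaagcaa
Wnt5b start with the STAT palindrome, chr6:119467212-119467461, minus strand: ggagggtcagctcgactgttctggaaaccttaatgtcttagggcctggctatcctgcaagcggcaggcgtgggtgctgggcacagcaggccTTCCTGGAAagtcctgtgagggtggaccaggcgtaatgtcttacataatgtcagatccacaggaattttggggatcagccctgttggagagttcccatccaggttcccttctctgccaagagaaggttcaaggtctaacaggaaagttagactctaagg
Wnt10b, chr15:98778151-98778400, minus strand: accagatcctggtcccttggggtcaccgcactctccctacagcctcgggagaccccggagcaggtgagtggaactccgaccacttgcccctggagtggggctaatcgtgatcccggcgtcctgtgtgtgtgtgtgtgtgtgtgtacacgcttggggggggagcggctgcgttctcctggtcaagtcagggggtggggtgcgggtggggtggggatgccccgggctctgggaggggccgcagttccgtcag
The core in Wnt5b began 71 bases and the palindrome 159 bases before their starts. The third Wnt5b window held neither.

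The genes that make ligands fit for export moved in opposite directions. Wls (ENSMUSG00000028173, chromosome 3, 159839672 to 159938664, plus strand), the carrier that takes lipid-modified Wnt proteins to the cell surface, had 762.9, 777.8 and 769.1 CPM in Il22r+/+ and 427.6, 450.4 and 455.6 CPM in Il22r-/-. The genotypes were far apart relative to their spread, and Wls fell 1.73-fold (log2 fold change -0.79 ± 0.08, edgeR adjusted p = 2.1e-05). Porcn, the acyltransferase that adds the lipid, had 9.71, 10.6 and 8.94 CPM against 13.1, 12.5 and 12.1 CPM. It rose 1.29-fold without overlap (0.37 ± 0.13, edgeR adjusted p = 0.0376), but the call held under only 7 of 14 alternatives (adjusted p 0.013 to 0.128) and was lost without Il22r+/+ replicate 1 (0.104) or 3 (0.128) or Il22r-/- replicate 1 (0.106) or 2 (0.101).

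Among 9 tested Frizzled receptors 2 fell and 2 rose. Fzd1 (ENSMUSG00000044674, chromosome 5, 4753839 to 4758035, minus strand) had 135.9, 120.9 and 136.9 CPM in Il22r+/+ and 31.7, 38.8 and 41.8 CPM in Il22r-/-. The lowest Il22r+/+ library lay well above the highest Il22r-/- library, and the fall was 3.51-fold (log2 fold change -1.81 ± 0.11, edgeR adjusted p = 7.57e-07). Fzd6, a receptor best known from cell polarity, fell 3.55-fold, from 7.02, 3.82 and 2.43 CPM to 0.998, 1.12 and 1.64 CPM (-1.83 ± 0.40, edgeR adjusted p = 0.00409). Its Il22r+/+ libraries were widely spread but did not overlap those of Il22r-/-. Fzd3, another polarity receptor, had 42.1, 45.5 and 40.6 CPM against 55.1, 50.1 and 62.9 CPM and rose 1.31-fold (0.39 ± 0.10, edgeR adjusted p = 0.00763). Fzd4, which also binds the ligand norrin, had 24.2, 22.4 and 22.7 CPM against 25.7, 28.7 and 35.7 CPM and rose 1.3-fold (0.38 ± 0.12, edgeR adjusted p = 0.0297). The Fzd4 groups came close without overlapping. Its call held under 7 of 14 alternatives and was lost on leaving out any library but Il22r-/- replicate 1, with edgeR adjusted p-values from 0.0548 without Il22r-/- replicate 2 to 0.098 without Il22r+/+ replicate 2 (0.0686 and 0.0978 without Il22r+/+ replicates 1 and 3, and 0.0802 without Il22r-/- replicate 3).

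The other 5 Frizzled receptors did not pass. Fzd2, the most abundant per length in both genotypes, had 141.3, 142.6 and 150.9 CPM in Il22r+/+ and 93.7, 117.9 and 154.1 CPM in Il22r-/-. Il22r-/- replicate 3 was the highest of all 6 libraries and the other two Il22r-/- libraries were the lowest, and the log2 fold change was -0.25 ± 0.16 (edgeR adjusted p = 0.224, range over the alternatives 0.00123 to 0.508). Without Il22r-/- replicate 3 it was -0.47 and passed (edgeR adjusted p = 0.00123). Fzd7 lay between 68.7 and 89.9 CPM in all libraries (-0.02 ± 0.10), Fzd8 between 22.6 and 27.9 CPM (0.00 ± 0.11) and Fzd5 between 26.1 and 40.9 CPM (-0.26 ± 0.12). Exons of Fzd5 are overlapped over 17.8% of their length by Gm38058 on the other strand, and the sources used here do not state whether the counts use strand. Genes on the other strand also overlap Fzd6, Axin2, Tcf7l1, Wnt5a, Wnt7b and Wnt11 over 3.15% to 8.8% of their exon length, and Lef1 over 13.7%. Fzd9 had 0.468, 0.477 and 0.118 CPM against 0.788, 0.8 and 0.591 CPM (1.03 ± 0.51, edgeR adjusted p = 0.129). Per length, Fzd1 made up 28.8 to 30.3% of the summed Frizzled FPKM in Il22r+/+ and 10.8 to 12.6% in Il22r-/-, while the share of Fzd2 was 36.1 to 39.0% and 38.2 to 45.7% and that of Fzd7 15.9 to 16.7% and 20.7 to 24.0%. In Il22r+/+ the order was thus Fzd2, Fzd1 and Fzd7, with no overlap between neighbours, and in Il22r-/- it was Fzd2, Fzd7 and Fzd1.

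The co-receptors differed little. Lrp5 had 135.4, 141.1 and 138.4 CPM in Il22r+/+ and 103.1, 112.7 and 121.6 CPM in Il22r-/-, without overlap, and fell 1.23-fold (log2 fold change -0.30 ± 0.08, edgeR adjusted p = 0.00985). Lrp6 had 171.2, 164.5 and 164.3 CPM against 147.3, 158 and 170.4 CPM, with overlap (-0.07 ± 0.08, edgeR adjusted p = 0.473). The difference between these 2 changes was not tested.

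In the R-spondin branch, secreted R-spondins bind LGR receptors and thereby hold off the ubiquitin ligases RNF43 and ZNRF3, which remove Frizzled proteins from the cell surface. Both tested receptors and 1 ligase rose. Lgr4 (ENSMUSG00000050199, chromosome 2, 109917647 to 110014257, plus strand) had 50.2, 46.5 and 49.5 CPM in Il22r+/+ and 69.8, 66.4 and 87.9 CPM in Il22r-/-, and rose 1.53-fold (log2 fold change 0.62 ± 0.11, edgeR adjusted p = 0.000866). Lgr6 had 20.5, 24.5 and 22.1 CPM against 36.4, 36.8 and 45.5 CPM and rose 1.77-fold (0.82 ± 0.12, edgeR adjusted p = 0.00024). In both receptor genes Il22r-/- replicate 3 was the highest library and the groups did not overlap. Znrf3 had 22.3, 21.1 and 18.7 CPM against 25.9, 23 and 27.8 CPM (0.31 ± 0.11, edgeR adjusted p = 0.0469). Its groups lay close together, and the call held under only 4 of 14 alternatives (adjusted p up to 0.172), being lost without any 1 library other than Il22r-/- replicate 2 (edgeR adjusted p 0.067, 0.102 and 0.172 without Il22r+/+ replicates 1 to 3, and 0.107 and 0.108 without Il22r-/- replicates 1 and 3). Rnf43 had 3.68, 3.52 and 4.26 CPM against 6.14, 4.32 and 5.45 CPM, short of the threshold (0.47 ± 0.21, edgeR adjusted p = 0.0866). Rspo1 was the only R-spondin with enough reads, with counts of 25, 19 and 12 for Il22r+/+ against 15, 7 and 6 for Il22r-/-. Its groups overlapped and the log2 change of -1.06 ± 0.45 did not pass (edgeR adjusted p = 0.0792, range over the alternatives 0.0441 to 0.265), though leaving out Il22r-/- replicate 1 brought it past the threshold (edgeR adjusted p = 0.0441). Rspo4 had 3 reads in each genotype, Rspo2 had 2 in Il22r-/- alone, and Rspo3 had none.

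The secreted antagonists, most of which bind Wnt proteins or LRP co-receptors outside the cell, held the most abundant members of the family. Sfrp4 (ENSMUSG00000021319, chromosome 13, 19623104 to 19632994, plus strand) had 932.6, 1055 and 955.1 CPM in Il22r+/+ and 559.6, 653.3 and 581.8 CPM in Il22r-/-. The groups did not overlap, and Sfrp4 fell 1.64-fold (log2 fold change -0.71 ± 0.09, edgeR adjusted p = 0.000149). Sfrp2 (ENSMUSG00000027996, chromosome 3, 83766321 to 83774316, plus strand) moved the other way, from 315.4, 334 and 319.9 CPM to 605.6, 603.5 and 867.6 CPM. It rose 2.14-fold (1.10 ± 0.14, edgeR adjusted p = 0.00013), and Il22r-/- replicate 3 was the highest library. Gm26771 overlaps 16.1% of the Sfrp2 exon length on the other strand. Dkk3, a divergent member of the Dickkopf family, was placed in this group by its symbol alone. It had 112.9, 105.2 and 121.1 CPM against 72.3, 76.5 and 67.4 CPM and fell 1.57-fold without overlap (-0.65 ± 0.08, edgeR adjusted p = 0.000106).

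Per length, Sfrp4 and Sfrp2 changed rank. The ratio of Sfrp4 to Sfrp2 in FPKM was 1.52, 1.63 and 1.54 over the Il22r+/+ libraries and 0.476, 0.558 and 0.345 over those of Il22r-/-. In every Il22r+/+ library Sfrp4 was the more abundant and in every Il22r-/- library Sfrp2 was. Sfrp2 held 35.2 to 36.1% of the summed antagonist FPKM in Il22r+/+ and 60.3 to 71.1% in Il22r-/-. The sum of all antagonists was 417.7 to 452.5 FPKM and 439.6 to 577 FPKM, so that the summed ranges overlapped. The shares of Sfrp4, Sfrp2 and Dkk3 did not overlap between the genotypes, and those of Dkk2 and Sfrp1 did.

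The other tested antagonists were expressed at a low level. Sfrp1, a Frizzled-related Wnt binder like Sfrp2, had 5.09, 4 and 3.08 CPM in Il22r+/+ and 4.94, 9.23 and 6.9 CPM in Il22r-/-. Its groups overlapped, and the call as higher (log2 fold change 0.79 ± 0.27, edgeR adjusted p = 0.0321) held under 8 of 14 alternatives, being lost without Il22r+/+ replicate 2 (0.0915) or 3 (0.129) or Il22r-/- replicate 2 (0.159). Dkk2, which binds LRP co-receptors, had 6.49, 5.25 and 3.38 CPM against 4.94, 11.7 and 10.1 CPM, short of the threshold (0.82 ± 0.34, edgeR adjusted p = 0.0813, range over the alternatives 0.000399 to 0.255). Without Il22r-/- replicate 1, the library that overlapped Il22r+/+, Dkk2 had a log2 change of 1.10 and passed (edgeR adjusted p = 0.00351). Dkk1, Sfrp5 and Wif1 had no reads in any library, and Dkk4 had 1.

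**Figure D3:**
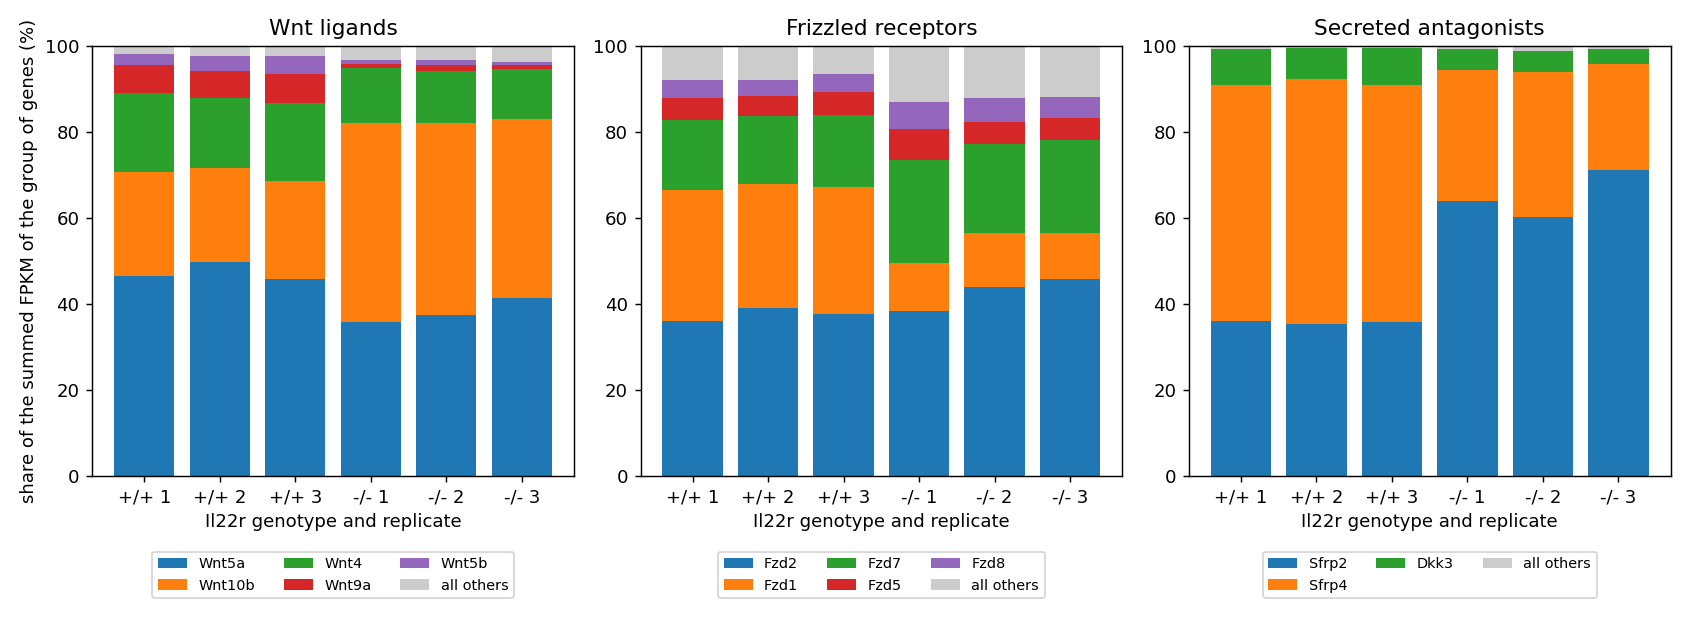
Share of the summed FPKM of the Wnt ligands, Frizzled receptors and secreted antagonists taken by each gene in each of the 6 libraries (stacked bars, percent). Wnt10b takes 41.6 to 46.4% of ligand FPKM in Il22r-/-, Fzd1 shrinks to 10.8 to 12.6% of Frizzled FPKM, and Sfrp2 takes 60.3 to 71.1% of antagonist FPKM.

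At the end of the canonical arm, Tcf7 rose and the scaffolds did not pass. Tcf7 (ENSMUSG00000000782, chromosome 11, 52252371 to 52283331, minus strand), a TCF/LEF factor that is also a target of the pathway, had 17.4, 19.9 and 21.9 CPM in Il22r+/+ and 38.8, 37.8 and 39.1 CPM in Il22r-/-. The Il22r-/- libraries were nearly level and all lay above Il22r+/+, and the rise was 1.95-fold (log2 fold change 0.97 ± 0.10, edgeR adjusted p = 3.69e-05). Tcf7l2 had 28.8, 30.7 and 29.4 CPM against 28.4, 26.5 and 38.4 CPM (0.06 ± 0.13, edgeR adjusted p = 0.725). Tcf7l1, which acts mostly as a repressor, had 29.8, 23.9 and 25.1 CPM against 16.7, 18.8 and 25.6 CPM, which did not reach the threshold (-0.37 ± 0.16, edgeR adjusted p = 0.0794, range over the alternatives 0.00128 to 0.268). Il22r-/- replicate 3 alone overlapped Il22r+/+, and without it Tcf7l1 had a log2 change of -0.58 and passed (edgeR adjusted p = 0.00128). Lef1 had 3 reads in all of Il22r+/+ and 7 in all of Il22r-/-.

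Axin2, a scaffold of the destruction complex and a widely used readout of beta-catenin activity, had 25.4, 24.3 and 22.9 CPM in Il22r+/+ and 23.2, 25.9 and 19.7 CPM in Il22r-/-. The groups overlapped, with a log2 fold change of -0.08 ± 0.12 (edgeR adjusted p = 0.623, range over the alternatives 0.263 to 0.996). Axin1, the constitutive scaffold, had 60.9, 56.8 and 61.5 CPM against 73.5, 67.2 and 61.3 CPM (0.17 ± 0.08, edgeR adjusted p = 0.118, range over the alternatives 0.0182 to 0.414). Leaving out Il22r-/- replicate 3, Axin1 was called (0.22, edgeR adjusted p = 0.0182).

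The remaining 20 members were below the filter on low counts. Of these, 7 had at least 5 reads in all. For Wnt6, a canonical ligand, 5, 2 and 0 reads were counted in Il22r+/+ against 12, 9 and 10 for Il22r-/-, a pooled ratio of 4.56 (exact 95% interval 1.97 to 12.3). This interval and those that follow cover counting error only and leave out the spread between libraries, so they are no test of the genotype. Wnt7b had 2, 5 and 11 reads against 4, 1 and 1, a pooled ratio of 2.92 in the other direction (1.11 to 8.97), and Wnt7a 2, 1 and 5 against 1, 0 and 0 (7.78, 1.04 to 345). Wnt7b reads were mostly in Il22r+/+ replicate 3, and its libraries overlapped between genotypes. Wnt10a had 4, 3 and 3 reads against 5, 2 and 2 (ratio 0.926, Il22r-/- over Il22r+/+, 0.333 to 2.54), and Lgr5 1, 0 and 3 against 3, 1 and 0 (1.03, 0.192 to 5.52). The Lef1 ratio was 2.4 (0.548 to 14.4), from 1, 1 and 1 reads against 5, 2 and 0, and Rspo4 had 1, 2 and 0 against 1, 0 and 2. Another 5 members, Fzd10, Wnt3, Wnt1, Dkk4 and Rspo2, had 1 to 4 reads. The 8 without a read were Wnt3a, Wnt8a, Wnt8b, Wnt9b, Dkk1, Sfrp5, Rspo3 and Wif1, and a count of 0 allows up to 0.057 CPM over the 3 Il22r+/+ libraries and 0.0586 CPM over the 3 of Il22r-/-.

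Among genes that act inside the cell in the beta-catenin arm, more fell than rose, but most did not pass. Of 30 tested, 2 rose and 9 fell (36.7% called, against 45.7% of all tested genes), and the median log2 fold change was -0.14. Ctnnb1, which encodes beta-catenin, had 648.8 ± 18.4 CPM (SD, n = 3) and 600.1 ± 8.07 CPM, with no call (-0.11 ± 0.08, edgeR adjusted p = 0.254). Ulk4 overlaps 14.6% of the Ctnnb1 exon length on the other strand. Ctnnbip1, which blocks the binding of beta-catenin to TCF, had 27 ± 1.5 and 24.1 ± 1.13 CPM (-0.17 ± 0.09), and Gm13066 lies over 25.8% of its exon length on the opposite strand. Apc2, a relative of the destruction complex scaffold APC, fell 3.11-fold from 23.4 ± 1.58 to 7.55 ± 1.62 CPM. Bcl9l, a beta-catenin coactivator, fell 1.75-fold from 188.5 ± 13 to 107.5 ± 10.5 CPM, and Dact3 fell 2.16-fold from 13.1 ± 0.948 to 6.07 ± 0.944 CPM. Nkd1, a feedback inhibitor that binds Dishevelled, rose from 0.197 ± 0.0359 to 1.1 ± 0.144 CPM. Its reads numbered 3, 4 and 3 in Il22r+/+ and 21, 18 and 19 in Il22r-/-. Nkd1 was thus tested only because of the genotype in which it is high. Its rise, counted among the 2, is given as a description. Nkd2, at 0.575 ± 0.588 CPM in Il22r+/+ and 1.23 ± 0.471 CPM in Il22r-/-, was also tested through Il22r-/- alone and was not called. Without Il22r-/- replicate 3, 15 genes fell instead of 9. Between 1 and 3 rose over the fits without 1 library, with 1 on leaving out Il22r+/+ replicate 1 or 3 or Il22r-/- replicate 2 or 3.

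Of 22 tested genes of the beta-catenin-independent arm and planar polarity, 4 rose and 7 fell (11 of 22 called, against 45.7% of all tested genes), with a median of -0.13. Ror2, a Wnt5a receptor, rose from 0.177 ± 0.118 to 0.968 ± 0.342 CPM (log2 fold change 2.39 ± 0.57, edgeR adjusted p = 0.00628), a low level in both genotypes. Its reads numbered 3, 1 and 5 in Il22r+/+ and 12, 18 and 20 in Il22r-/-. Ror2 was thus tested only because of the genotype in which it is high. Its rise, counted among the 4, is given as a description. Daam2, a formin that binds Dishevelled, rose 1.88-fold from 16.6 ± 2.14 CPM. The calcium-responsive factors Nfatc4 and Nfatc2 fell 1.78-fold and 1.75-fold, from 51.4 ± 1.66 and 10.2 ± 1.73 CPM. Without Il22r-/- replicate 3, 13 genes fell instead of 7.

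Other extracellular modulators were called in 14 of 20 cases (70.0%, against 45.7% of all tested genes), 6 higher and 8 lower. The list was chosen with earlier results of these data known, so this share is a description. The median log2 fold change was 0.20. It includes Dkkl1, Draxin and Frzb, which averaged at most 0.552 CPM in Il22r+/+ and were tested through Il22r-/- alone. None of them was called. Gpc5, a glypican of the cell surface, fell 9.46-fold from 4.14 ± 1.22 to 0.423 ± 0.142 CPM. Its reads numbered 67, 51 and 92 in Il22r+/+ and 9, 10 and 4 in Il22r-/-. Gpc5 was thus tested only because of the genotype in which it is high, and its fall is given as a description. Sulf1, which trims sulphate groups from heparan sulphate, fell 8.26-fold from 182.7 ± 10.1 to 22.3 ± 8.25 CPM. Sdc4, a syndecan, fell 2.13-fold from 753.5 ± 66.2 to 353.5 ± 51.7 CPM. The glypican genes did not move together. Gpc3 rose 2.77-fold from 1.36 ± 0.286 to 3.8 ± 1.25 CPM, Gpc6 and Gpc2 rose by log2 fold changes of 1.03 and 0.81, Gpc1 fell by 0.35 on the log2 scale, and Gpc4 was not called. Gpc2 shares 55.6% of its exon length with Gm43720 on the same strand, and Ankmy1 overlaps 18.9% of that of Gpc1 on the opposite strand. Leaving out Il22r+/+ replicate 1 or 2 or Il22r-/- replicate 2 left 5 of this list lower instead of 8.

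Commonly cited beta-catenin targets did not move one way. Of 13 tested, 4 rose and 4 fell (61.5% called, against 45.7% of all tested genes), and the median log2 fold change was 0.07. The list is not independent of the others, and it too was chosen with earlier results of these data known. Axin2, Tcf7, Rnf43 and Znrf3 are members counted above, and Nkd1 and Apcdd1 also belong to lists described before. Besides Tcf7, Znrf3 and Nkd1, the growth regulator Myc rose 2.47-fold from 86 ± 5.39 to 212.7 ± 23.1 CPM. As above, Nkd1 was tested through the Il22r-/- libraries alone. Ccnd1, a D-type cyclin, fell 3.57-fold from 37.2 ± 1.45 to 10.3 ± 4.56 CPM (-1.84 ± 0.26, edgeR adjusted p = 0.000809), and Bmp4 fell 2.39-fold from 15.1 ± 2.89 to 6.38 ± 1.96 CPM. For Ccnd1, 23.4% of the exon length is shared with LTO1 on the opposite strand. Fst, the activin antagonist that Wnt4 maintains in the developing ovary, had 159 ± 21.7 and 186.4 ± 19.9 CPM with overlap between the groups (0.23 ± 0.11, edgeR adjusted p = 0.118, range over the alternatives 0.0246 to 0.37). Fst was called on leaving out Il22r+/+ replicate 2 (edgeR adjusted p = 0.0367) or Il22r-/- replicate 1 (0.0412). Many of these targets also respond to other pathways.

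**Figure D4:**
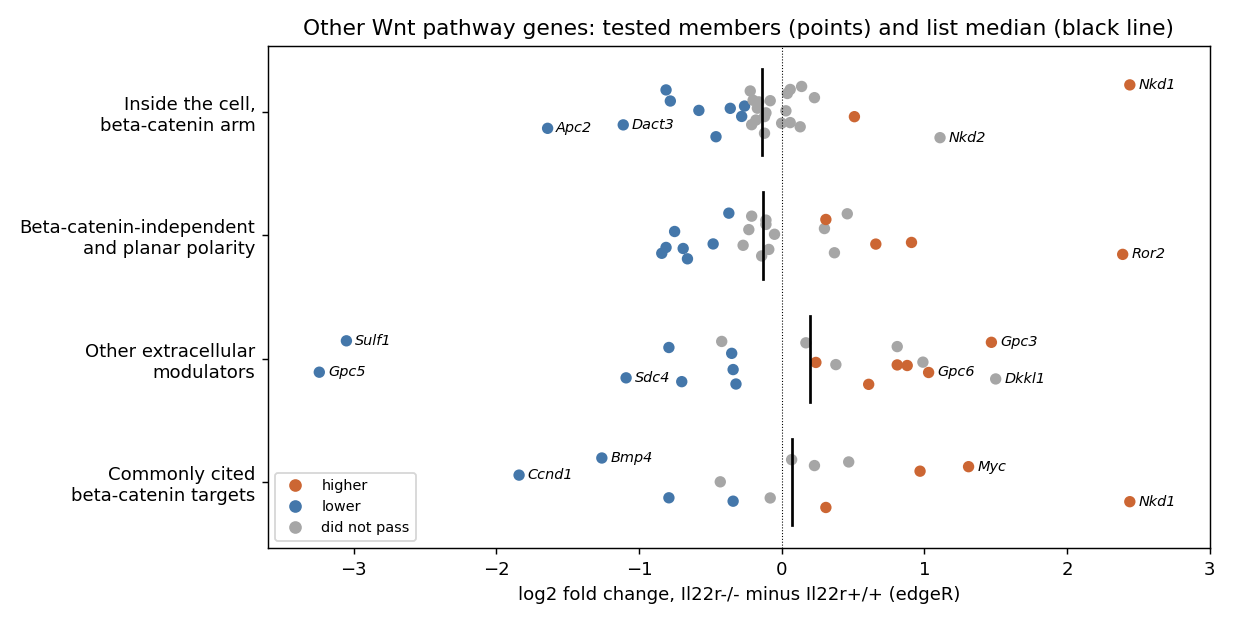
Log2 fold change of the tested genes of 4 other lists of the Wnt pathway (points, coloured where called by edgeR, black line at the list median), with genes beyond 1 on the log2 scale named. The medians lie between -0.14 and 0.20, and the called extracellular modulators spread from Gpc5 at -3.24 to Gpc3 at 1.47. Gpc5, Nkd1 and Ror2, and the uncalled Nkd2, Dkkl1, Draxin and Frzb, were tested through the reads of 1 genotype only. The target list also holds members such as Tcf7 and Znrf3.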

How the data were processed

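Total RNA from granulosa cells of 3 Il22r+/+ and 3 Il22r-/- libraries was sequenced, and libraries were grouped by the genotype and number in their titles. The authors deposited raw read counts per gene, and the submitters' processing notes name featureCounts 1.5.0-p3 and build mm10. The authors also deposited FPKM, which equal these counts divided by gene length and by a multiple of the counted reads of the library. That multiple was 0.9365 to 0.9391 in Il22r+/+ and 1 to 1.05 in Il22r-/-. The sources used here do not state the aligner, the strand setting or read filters.

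The counts were filtered with filterByExpr (15227 genes kept), normalised with TMM factors and tested with edgeR 4.0.16 (robust glmQLFit and glmQLFTest, genotype as the only term) in R 4.3.3, with Benjamini-Hochberg adjustment over all tested genes and calls at an adjusted p under 0.05. CPM are TMM-normalised. FPKM served to compare levels between genes. Alternatives were DESeq2 1.42.0, its size factors, library size alone, no filter or at least 1 CPM in 3 libraries, a replicate block, each library left out, and limma 3.58.1 on log2 of the FPKM with 1 or 0.1 added. Exon overlaps came from GENCODE M21, with which coordinates agreed for 56 of 57 members. The edgeR step was tested on simulated data. Replicates differed by more than sampling noise (chi-square per gene 4.76 to 27.3). Intervals are exact at 95%, and a count of 0 was taken to allow up to 3 reads. Promoter windows came from RefSeq (GRCm38.p6).

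The members and gene lists were chosen with earlier results of these data known. The text accounts for all members, gives values per library for called members and names, of each other list, up to 4 called genes of largest change, with Ctnnb1, Ctnnbip1, Ror2, Fst and Ccnd1 in any case. The other glypican genes were named after their values were seen.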

Additional observations from a re-analysis of the deposited data

How the results depend on the processing

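Of the 20 called members 16 kept their call and direction under every alternative in which they were tested, and Porcn, Fzd4, Znrf3 and Sfrp1 did not. The number of members called higher (12) ran from 8 to 15 over the alternatives and the number called lower (8) from 8 to 10, and no called member changed direction. With library size alone 63.6% of all calls were higher instead of 51.6%, the median of all tested genes moved from 0.03 to 0.13 and 15 members were higher and 8 lower, so small rises are relative to the TMM scale. Samples with the same replicate number did not deviate together (correlations of 0.026, -0.0406 and -0.0278), and with the replicate block 9 members were higher and 8 lower, and 6405 genes were called in all instead of 6963. Under the block Porcn, Znrf3 and Sfrp1 lost their calls. Genes inside the cell that rose numbered 1 with at least 1 CPM in 3 libraries, because Nkd1 was no longer kept, and 1 to 3 on leaving out a library. Those that fell numbered 6 with library size alone and 7 to 15 on leaving out a library, and those of the beta-catenin-independent list that fell 6 with library size alone and 6 to 13 on leaving out a library. Extracellular modulators that fell numbered 5 with library size alone and 5 to 9 on leaving out a library. The cause of these shifts was not tested. Members under about 1 CPM, such as Wnt16, Fzd9 and Rspo1, are limited by depth.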

Other observations

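Among the members 4 pairs of Wnt genes lie beside each other in the genome, and differences between neighbours were not tested. Wnt10b and Wnt1 are 11.7 kb apart on chromosome 15, and Wnt10b had 42.2 ± 1.87 and 122.6 ± 33.2 CPM (SD, n = 3) in Il22r+/+ and Il22r-/- while Wnt1 had 0 and 3 reads. Wnt9a, which fell, lies 16.2 kb from Wnt3a, which had no reads. Wnt6 and Wnt10a are 6.19 kb apart on chromosome 1, with 7 and 31 reads for Wnt6 and 10 and 9 for Wnt10a in the pooled Il22r+/+ and Il22r-/- libraries. The fourth pair, Wnt9b and Wnt3, 24.3 kb apart, had no reads for Wnt9b and 2 and 1 for Wnt3. The ratio of Wnt5a to Wnt10b in FPKM was 2.07 ± 0.199 in Il22r+/+ and 0.865 ± 0.116 in Il22r-/-, and that of Fzd2 to Fzd1 was 1.27 ± 0.0801 and 3.7 ± 0.458.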
